A study of Rattus norvegicus with 4 samples.

Results

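The cytosolic ribosomal protein genes encode the protein part of the ribosome that translates nuclear-encoded messages. They were taken from the deposited table by gene symbol alone: every row whose symbol is Rpl, Rps, Rplp with a number, or Rpsa, with paralogues and listed copies included and the Rps6k kinases left out. The rule gave 90 of 17853 rows, under 81 symbols, and left out 10 kinase rows. Rps19bp1, a binding partner of a ribosomal protein and not a ribosomal protein itself, also has a matching symbol and was kept apart in the descriptions. Polyadenylated RNA was sequenced from rat brains after intracerebral hemorrhage, which is a bleed within the brain. The 4 groups were tissue of the bleeding side (ipsilateral) and of the opposite side (contralateral) from 13 month old (adult) and 21 month old (old) rats, and all 4 carried the disease label, so no tissue without hemorrhage is among them. Each group held 1 library of pooled RNA; the labels speak of 9 brains, and do not say if that number holds per library or for all 4 together. The rats' strain, the way the hemorrhage was caused, the time after it and the brain region are not given in the labels.

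A ribosome is built from a small (40S) and a large (60S) subunit, each a ribosomal RNA core with many small basic proteins on it, most of which are needed in equal numbers. The small subunit reads the message, the large subunit joins the amino acids, and the P stalk of the large subunit, made of Rplp0, Rplp1 and Rplp2, recruits the translation factors. Messages of ribosomal proteins begin with a C followed by an unbroken run of pyrimidines (the bases C and T), the 5' terminal oligopyrimidine or TOP motif, through which mTOR signalling and the RNA binding protein Larp1 control their translation together. In the brain they are among the abundant messages of all cell types, and cells that grow or divide make more of them.

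The start of transcription was read from RefSeq promoter windows (build GRCr8, 300 bases from 250 before to 50 after the start) for 49 members. These were subunit, P stalk and paralogue members with a single window under their symbol, on the same chromosome in both sources. Listed copies, Rps19bp1 and symbols with several windows were left out, while the windows of all genes were not limited in this way. The 30 bases around the start are shown for 9 members, because the start is the sequence these genes are known to share. They hold 5 members that were higher on the bleeding side of the old rats (Rpl13a, Rpl23, Rps2, Rplp0 and Rps27l) and 4 that were lower. Capitals mark the longest pyrimidine run that touches the 10 bases on either side of the start, which is the 16th base of each line; a run can go on past the bases shown.

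Rpl13a: CCTCTTCCTTTCCTaggcggctgccgaaga
Rpl23: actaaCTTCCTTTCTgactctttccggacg
Rps2: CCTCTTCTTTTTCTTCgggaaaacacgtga
Rplp0: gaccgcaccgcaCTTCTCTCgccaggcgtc
Rpl34: CCCCTTCCTTTTCCTCTTCCggggacggtg
Rpl35: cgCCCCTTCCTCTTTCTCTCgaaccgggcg
Rps23: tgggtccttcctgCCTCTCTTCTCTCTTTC
Rpl36: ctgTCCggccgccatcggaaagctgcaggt
Rps27l: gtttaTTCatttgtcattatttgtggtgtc

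On GRCr8 these windows are chr1:104748899-104748928 (minus strand) for Rpl13a, chr10:83272170-83272199 (minus) for Rpl23, chr10:14251833-14251862 (plus) for Rps2 and chr12:46718376-46718405 (minus) for Rplp0. Those of the others are chr2:221962269-221962298 (minus) for Rpl34, chr3:43165907-43165936 (minus) for Rpl35, chr2:23814502-23814531 (plus) for Rps23, chr9:1533765-1533794 (plus) for Rpl36 and chr8:76443643-76443672 (plus) for Rps27l. Runs of at least 7 bases of C or T on the gene's strand were present in 36 of the 49 members, 73.5%, against 19.1% of all 33469 promoter windows. Runs of the complementary purines, counted the same way, were present in 8.16% of the members and 21.2% of all windows. The median run was 10 bases in the members and 4 in all windows, and the longest, in Rps23, was 21. Rpl36 and Rps27l are members whose annotated start shows a longest run of 3 bases. A match of letters is a description of the annotated start and not a proof of the messages' first base.

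**Figure D1:**
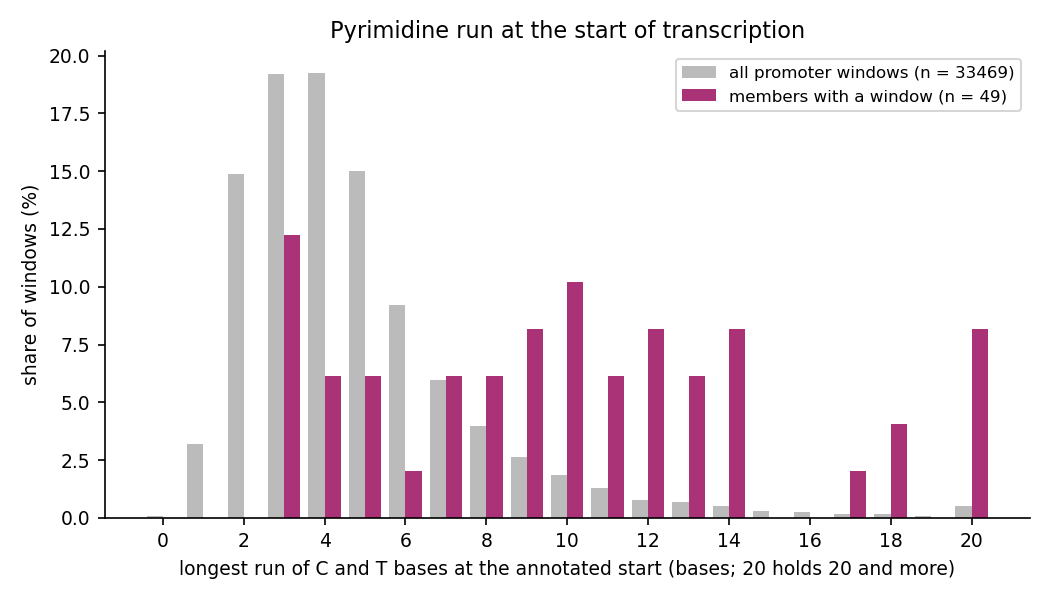
Length of the longest run of C and T bases at the annotated start of transcription (x axis, bases, runs of 20 or more together) as a share of windows in percent (y axis), for 49 ribosomal protein genes and for all 33469 RefSeq promoter windows. The members lie to the right, with a median of 10 bases against 4.

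Levels are given as deposited, in RPKM, read counts divided by gene length and by the library's mapped reads. Ribosomal protein genes have many near-identical copies in mammalian genomes, and the deposited level of a member can depend on how its reads were shared among them. Of the 90 rows, 69 averaged 1 RPKM or more across libraries and were used for ratios; 21 were below, and 13 were listed at 0 in at least one library. Of the 25 rows of 40S proteins 24 passed, of the 36 of 60S proteins 33, of the 3 of the P stalk 2, of 7 paralogues 5, of 18 listed copies 4, and Rps19bp1 passed. Of 77 standard symbols of the family, 64 had a row and 13 had none, among them Rps6, Rpl10 and Rpl22.

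Several essential members were close to 0 under their own symbol while a row with a placeholder name held the level. Rpl38, a 60S protein known for its part in the translation of Hox messages, was listed at 0 to 0.14 RPKM. The row LOC690468, described as similar to L38, stood at 231 and 187 RPKM in adult rats (ipsilateral, then contralateral), and at 149 and 157 RPKM in old rats. Rplp2 was at 0.04 RPKM or less, while LOC498555, described as P2, stood at 96.4 and 74.9 RPKM in adult rats, and at 99.2 and 68.96 RPKM in old rats. Altogether 116 rows outside the symbol rule were described as ribosomal proteins, and 27 of them passed the filter. For some proteins no row so described held a level. All rows of L8, L10A, L7A, L23A and S4 together averaged 0.0375, 0.0125, 0.108, 0.195 and 0.695 RPKM. The family's sums thus hold almost nothing of these proteins. Of the 84 member rows with a RefSeq entry under the same symbol, 13 lay on another chromosome than that entry; 4 of these passed the filter, Rpl37 (listed on chromosome 9, in RefSeq on 2), Rpl35a, a copy of Rplp1 and a copy of Rps10. The levels of single members are therefore uncertain, and how reads were shared among copies was not tested.

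For the table as a whole, precision is unknown because it holds no read counts. Defining markers of neurons, astrocytes and oligodendrocytes, 22 genes, were all above 0 in each library, the lowest being the astrocyte gene Aldh1l1 at 3.75 to 5.09 RPKM. Mitochondrially encoded genes held 18.5% and 23.3% of the summed RPKM at 13 months (ipsilateral, then contralateral) and 20.6% and 24.1% at 21 months, and counts that change when they are left out of the scaling are given below. Log2 ratios below were formed from RPKM plus 1, which understates the change of low genes, and a gene was counted as higher or lower where that ratio was 0.5 or more in size (1.41-fold). There were no replicates, so single ratios carry no error and no test.

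The family took a larger share of the messages on the bleeding side at both ages. Its rows summed to 9944 RPKM ipsilaterally and 7076 RPKM contralaterally at 13 months, and to 8917 and 7005 RPKM at 21 months. These were 2.51% and 1.81% of all RPKM at 13 months and 2.22% and 1.80% at 21 months. The ratio of the sides was 1.41 at 13 months and 1.27 at 21 months. The contralateral sums of the 2 ages differed by a factor of 0.990, and the ipsilateral sum at 21 months was 0.897 of that at 13 months. In bulk tissue, fewer cells of a type and less RNA per cell cannot be told apart.

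Levels per length differed widely among members. Mean levels of the 69 rows ran from 1.16 to 874 RPKM, 752-fold, with a median of 35.9 RPKM. At least 100 RPKM were reached by 23 rows and at least 10 RPKM by 52. The 10 highest rows held 56.8% to 60.8% of the family's summed RPKM. Rpl13a, which also serves in a complex that silences inflammatory messages, led with 892 and 674 RPKM at 13 months (ipsilateral, then contralateral) and 1229 and 702 RPKM at 21 months. The next 60S proteins in rank were Rpl35, Rpl41, Rpl23 and Rpl19. Among the 40S proteins Rps15, with 321 and 233 RPKM at 13 months and 310 and 209 RPKM at 21 months, was highest, followed by Rps27, Rps14 and Rps3.

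**Figure D2:**
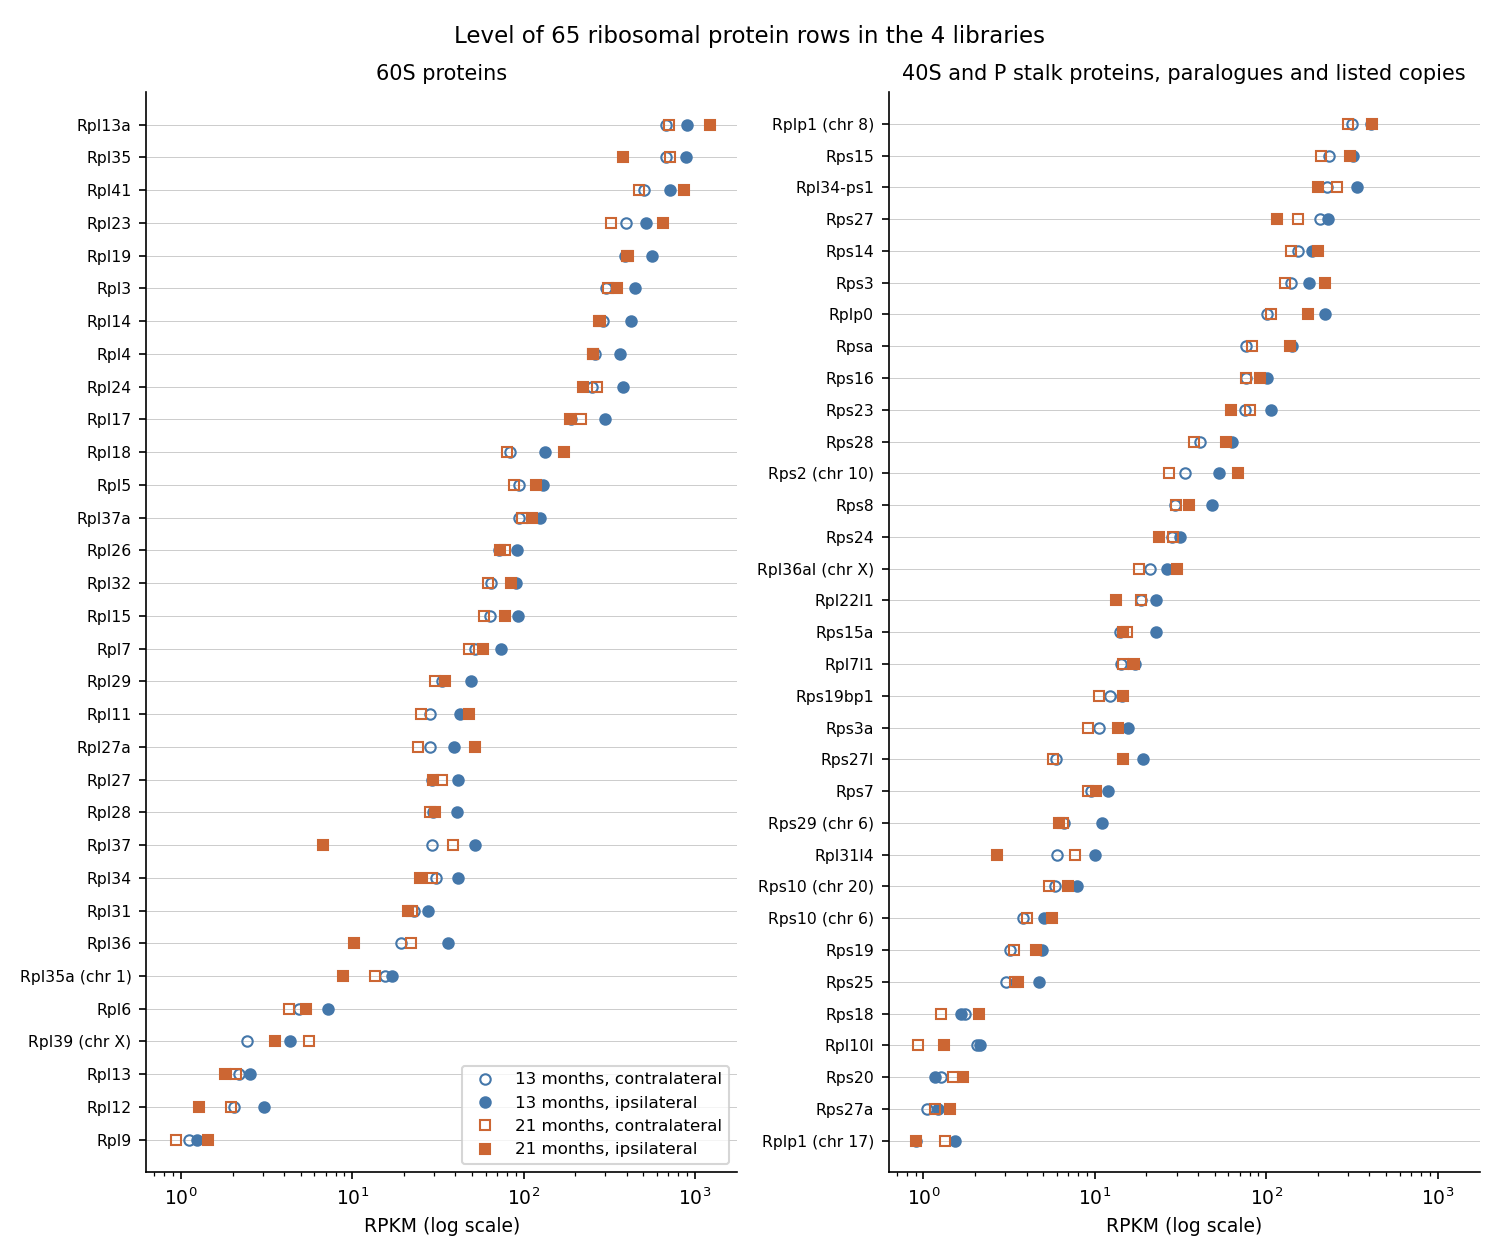
Level of 65 of the 69 rows that passed the filter, in RPKM on a log scale (x axis), in the 4 libraries: circles for 13 months, squares for 21 months, filled for the bleeding side and open for the opposite side. The open symbols lie close together in most rows (60 of all 69 within a log2 ratio of 0.25), while the filled square of the 21 month bleeding side lies right of them in some rows (Rpl13a, Rps2) and far left in others (Rpl37, Rpl36). The contralateral age ratio had a 25th to 75th percentile range 0.20 wide in the members and 0.17 over all genes.

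At 13 months the family was higher on the bleeding side nearly throughout. Of the 69 rows, 67 (97.1%, against 50.8% of all genes) were higher ipsilaterally, and the exceptions were the rows of Rps18 and Rps20, listed at 1.17 to 2.11 RPKM. These rows held 12.1% and 2.18% of the summed level of all rows described as S18 and S20. Those sums, formed after the data were seen, were higher ipsilaterally at 13 months, with log2 ratios of 0.63 and 0.84. The median log2 ratio was 0.47, against 0.01 over all 12160 genes that passed the filter. A log2 ratio of at least 0.5 was reached by 27 rows (39.1%), against 15.2% of all genes. Not 1 row was lower by that size, against 4.09% of all genes. The rows lay close together, with a middle range (25th to 75th percentile) of 0.34 to 0.57, a width of 0.23 against 0.48 over all genes. When the libraries were rescaled without mitochondrially encoded genes, 15 rows and not 27 were higher by 0.5, beside 12.9% of all genes. A log2 ratio of at least 1 was rarer in the family than in the table: 2 rows (2.9%) against 7.19% of all genes.

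At 21 months the members went apart. Now 44 rows (63.8%) were higher on the bleeding side, near the 60.8% of all genes, and 25 were lower. All 25 had been higher there at 13 months, as had 67 of the 69 rows. The median log2 ratio was 0.23, against 0.09 over all genes, and the middle range widened from 0.23 to 0.71, while that of all genes was 0.45. Higher by at least 0.5 were 20 rows (29.0%), against 16.3% of all genes, and lower were 6 (8.70%), against 2.94%. Under median-ratio scaling these counts were 16 and 8, beside 12.5% and 5.37% of all genes, since that scaling moves the median of all genes from 0.09 to -0.01. Of the members with at least 10 RPKM, 19 of 52 were higher (36.5%) and 4 lower (7.69%), against 14.7% and 3.95% of all 5549 genes at that level. By a log2 ratio of at least 1, 4 rows were higher (5.8%), near the 5.61% of all genes, and 3 lower (4.35%), against 0.288%. Across the 69 rows the ratios of the 2 ages were nearly uncorrelated, with Pearson's r of 0.07 and Spearman's rho of 0.07, while over all genes they were 0.77 and 0.52. These are correlations across genes of single libraries, with genes that are not independent, and they are given as a description only. The 13 month ratios also spread less in the members than over all genes (standard deviation 0.25 against 0.59), which can lower a correlation.

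**Figure D3:**
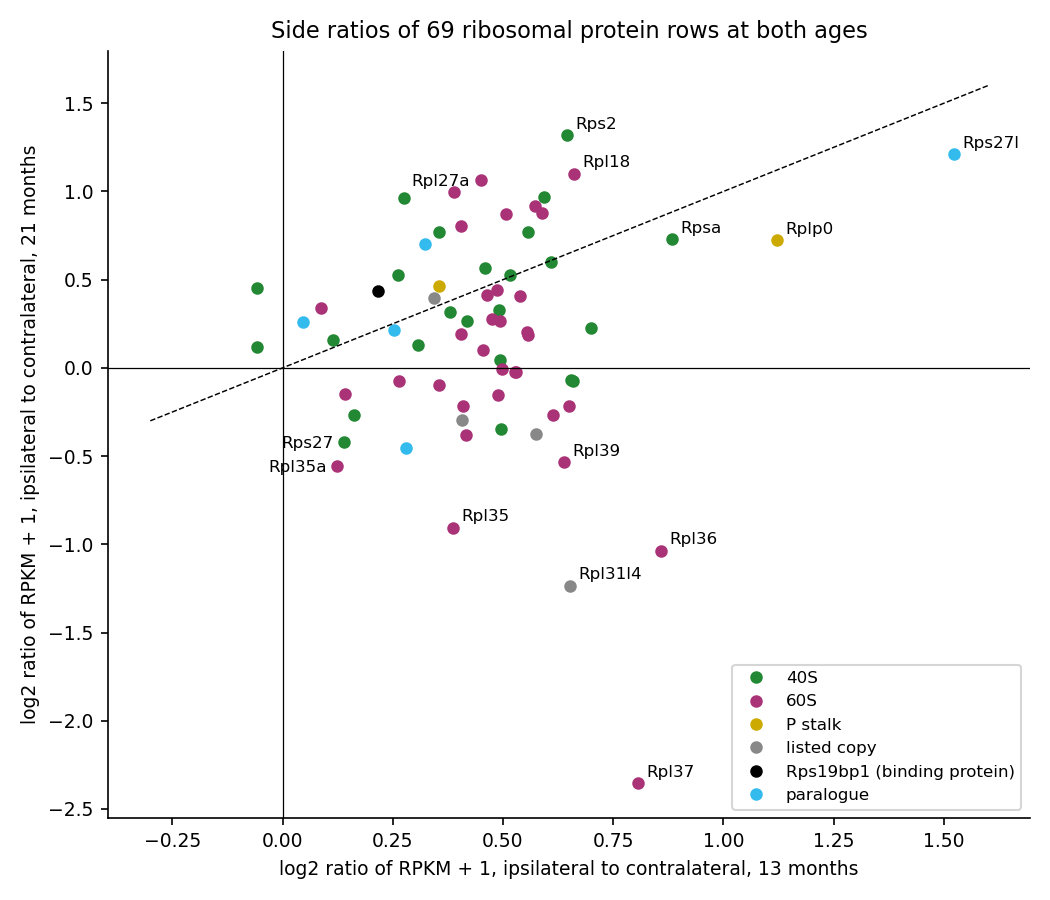
Log2 ratio of RPKM plus 1 between the bleeding side and the opposite side at 13 months (x axis) and at 21 months (y axis) for 69 rows, coloured by class; the dashed line marks equal ratios. The points fall in a narrow band to the right of 0 on the x axis but spread from -2.35 (Rpl37) to 1.32 (Rps2) on the y axis.

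Taking the ages together as repeats of the side comparison, both ipsilateral libraries lay above both contralateral ones in 41 of the 69 rows (34.4% of all genes did so) and below them in 0 rows (22.1% of all genes). A limma fit of the side with age as an additive term, which has 1 residual degree of freedom, found that 18 members (26.1%) rose on the bleeding side and 0 fell at a Benjamini-Hochberg adjusted p of 0.05. Of all genes, 13.3% rose and 0.814% fell. At an unadjusted p of 0.05 the fit had 31 members that rose (44.9%, against 18.9% of all genes) and 0 that fell (4.47% of all genes). After rescaling without mitochondrially encoded genes, 8 members rose (11.6%), near the 9.65% of all genes, at the adjusted threshold. Without the age term it was 11 (15.9%), against 9.79%. Among the 18 were Rps2, Rps3, Rps3a, Rps15, Rps28 and Rpsa of the 40S subunit, Rpl11, Rpl13a, Rpl18, Rpl23, Rpl27a and Rpl41 of the 60S subunit, Rplp0 of the stalk and the paralogue Rps27l. Only 8 of the 18, among them Rpl11, Rpl18, Rplp0, Rps2, Rps27l and Rpsa, were also called in all 6 alternatives that kept a filter on low values. With no filter limma called 0 of all genes and 0 members, and 29 members rose at an unadjusted p of 0.05 (32.2% of 90 rows, against 14.8% of all genes). In this fit a side ratio that differs between the ages counts as noise, and limma draws each gene's noise toward a level shared over all genes.

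The age comparison was made on each side. On the bleeding side 48 of the 69 rows were lower at 21 than at 13 months, with a median log2 ratio of -0.24 against 0.03 over all genes. The other rows, 30.4%, were higher, against 53.9% of all genes. Lower by at least 0.5 were 17 rows (24.6%), against 5.94% of all genes, and higher was 1 row (1.45%), against 6.53%. Summing all rows described as the same ribosomal protein, a step added after the data were seen, gave 77 proteins, of which 72 reached at least 1 RPKM on average. Of these 27 were lower by 0.5 and 0 higher, while the shares of all genes above are of single rows and not of sums. By side, the sums gave 37 proteins higher and 0 lower at 13 months, beside 15.2% and 4.09% of all genes. At 21 months 20 were higher and 7 lower, beside 16.3% and 2.94% of all genes. On the opposite side the family hardly differed between ages: the median was -0.04, against -0.03 over all genes, and 60 rows lay within 0.25 of 0, compared with 25 rows on the bleeding side. All genes lay close together on the opposite side too, with a middle range 0.17 wide against 0.20 in the members. On the bleeding side these widths were 0.41 and 0.61. Higher by 0.5 on the opposite side was 1 row, Rpl39, against 0.905% of all genes, and lower was 1 row, Rpl10l, against 0.666%.

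Subtracting the adult from the old side ratio joins these values. The median of this difference over the members was -0.20, against 0.05 over all genes, and its lowest value was -3.16, in Rpl37. Lower by at least 0.5 were 21 rows (30.4%), against 6.92% of all genes, and higher were 5 (7.25%), among them Rps2, Rpl27a, Rpl23 and Rps18, against 9.79%. With 1 library per group this difference could not be tested. Over the 69 rows Pearson's r between log2 mean RPKM and the difference was 0.04. At the start of transcription a pyrimidine run of at least 7 bases was present in 20 of 29 members with a 21 month side ratio above 0 (69%) and in 14 of 18 below 0 (77.8%). The median GC content of their promoter windows was 56.7% and 54.7%.

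**Figure D4:**
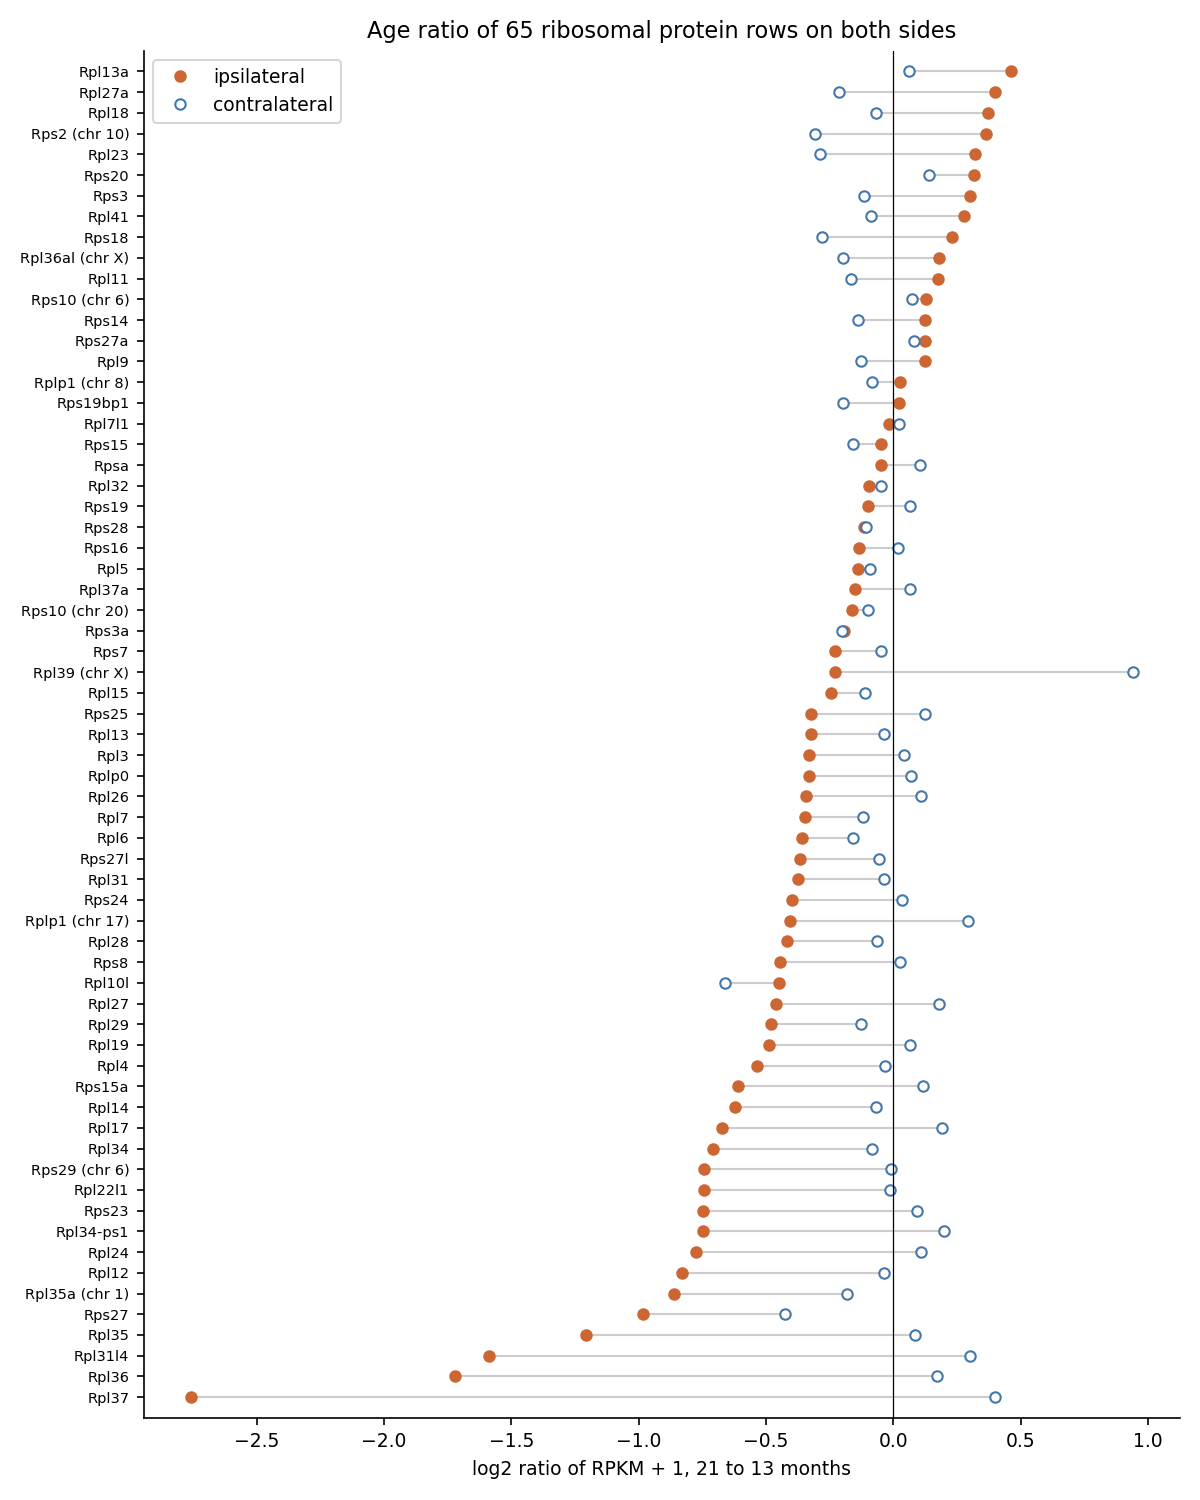
Log2 ratio of RPKM plus 1 between 21 and 13 months (x axis) for 65 of the 69 rows, ordered by the value on the bleeding side (filled circles); open circles give the opposite side. The open circles stay near 0 in most rows, while the filled ones run from -2.76 (Rpl37) to 0.46 (Rpl13a).

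Among the 40S proteins, the median side ratio was 0.47 at 13 months and 0.32 at 21 months, and the median age ratio on the bleeding side was -0.11. Rps2 (ENSRNOG00000014179, chromosome 10), a substrate of the methyltransferase Prmt3, stood at 53.2 and 33.6 RPKM in adult rats (ipsilateral, then contralateral), and at 68.8 and 27.0 RPKM in old rats. Both ipsilateral libraries were higher than both contralateral ones, with log2 ratios of 0.65 and 1.32 (limma 0.98, SE 0.18, adjusted p = 0.000437). A second row of Rps2, on chromosome 5, was below 0.5 RPKM throughout. Rpsa, also known as the laminin receptor, stood at 142 and 76.4 RPKM in adult rats, and at 137 and 82.3 RPKM in old rats, with side ratios of 0.88 and 0.73. The sides did not overlap in either gene.

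Other 40S members went the opposite way in the old rats. Rps27, a zinc finger protein, stood at 229 and 207 RPKM in adult rats, and at 115 and 154 RPKM in old rats. It was lower in both old libraries, with age ratios of -0.98 ipsilaterally and -0.42 contralaterally, and its side ratio went from 0.14 to -0.42. Rps23, a protein of the decoding centre, stood at 106 and 74.96 RPKM in adult rats, and at 62.8 and 80.1 RPKM in old rats. The 21 month bleeding side was the lowest of its 4 libraries and the 13 month bleeding side the highest. Rps29, at 10.99 and 6.60 RPKM and then at 6.16 and 6.55 RPKM, stood apart in the ipsilateral library of the adult rats.

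Among the 60S proteins the spread at 21 months was wider than among the 40S proteins, with a middle range of 0.63 against 0.53, although at 13 months it was narrower (0.15 against 0.32). All 33 were higher on the bleeding side at 13 months, with a median of 0.49, while 50.8% of all genes were higher. At 21 months 17 were higher (51.5%, against 60.8% of all genes) and 16 lower, with a median of 0.10. The median age ratio on the bleeding side was -0.35. The difference between subunits was not tested.

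The 60S members that were higher at 21 months include abundant ones. Rpl23, which can bind the ubiquitin ligase Mdm2, stood at 519 and 396 RPKM in adult rats, and at 648 and 324 RPKM in old rats, with side ratios of 0.39 and 0.997. Rpl18 stood at 132 and 83.4 RPKM in adult rats, and at 172 and 79.4 RPKM in old rats, with side ratios of 0.66 and 1.10 (limma 0.88, SE 0.18, adjusted p = 0.000844). In each of these genes the 21 month bleeding side was the highest library and the 21 month opposite side the lowest. Rpl11 and Rpl5, which form a particle with 5S ribosomal RNA that also binds Mdm2, had different ratios at 21 months. Rpl11 stood at 42.5 and 28.3 RPKM and then at 48.2 and 25.1 RPKM, and its old side ratio was 0.92. Rpl5 stood at 130 and 93.8 RPKM and then at 118 and 88.0 RPKM, with an old side ratio of 0.41 (limma over both ages 0.44, SE 0.17, adjusted p = 0.101).

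Others were higher on the bleeding side of the adult rats and lower there in the old rats. Rpl37 (ENSRNOG00000033803), a small zinc finger protein, stood at 51.7 and 29.1 RPKM in adult rats, and at 6.79 and 38.8 RPKM in old rats. The 21 month bleeding side stood far below the other 3 libraries, with an age ratio of -2.76. Among all 12160 genes only 1 had a lower side ratio at 21 months and only 2 a lower age ratio on the bleeding side. Rpl36 (ENSRNOG00000033473, chromosome 9) stood at 36.0 and 19.4 RPKM in adult rats, and at 10.2 and 22.0 RPKM in old rats, with side ratios of 0.86 and -1.04. Rpl35, which lies at the exit of the tunnel for the new protein where the signal recognition particle docks, stood at 882 and 674 RPKM in adult rats, and at 382 and 716 RPKM in old rats. Its side ratio went from 0.39 to -0.91. In all 3 genes the old ipsilateral library was the lowest, while the contralateral age ratios were 0.40, 0.17 and 0.09.

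Smaller differences of the same kind were seen in further 60S members. Rpl24, mutated in the belly spot and tail mouse, stood at 382 and 249 RPKM in adult rats, and at 223 and 268 RPKM in old rats. Rpl17, which lines the exit tunnel, stood at 297 and 189 RPKM and then at 186 and 216 RPKM. Rpl35a, a gene mutated in Diamond-Blackfan anemia, stood at 16.95 and 15.5 RPKM and then at 8.88 and 13.5 RPKM. Their side ratios at 21 months were -0.27, -0.22 and -0.56, after 0.61, 0.65 and 0.12 at 13 months. The core proteins Rpl3 and Rpl4, which reach to the catalytic centre and the exit tunnel, were between these extremes. Rpl3 stood at 444 and 301 RPKM and then at 353 and 310 RPKM, and Rpl4 at 367 and 259 RPKM and then at 253 and 254 RPKM. Rpl39, a very short tunnel protein, was highest on the opposite side of the old rats. It stood at 4.34 and 2.43 RPKM in adult rats, and at 3.55 and 5.58 RPKM in old rats, and its other 2 rows reached at most 1.01 RPKM.

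In the P stalk, Rplp0 stood at 221 and 101 RPKM in adult rats, and at 176 and 106 RPKM in old rats. It was higher in both ipsilateral libraries, with side ratios of 1.12 and 0.72 (limma 0.92, SE 0.17, adjusted p = 0.000475). Rplp0 is often used as a reference gene for quantitative PCR. Rplp1 stood at 408 and 319 RPKM in adult rats, and at 416 and 301 RPKM in old rats, with smaller side ratios of 0.36 and 0.46. In neither of these rows did the side ratio change sign with age, and in neither did the sides overlap. A second row of Rplp1, on chromosome 17, averaged 1.16 RPKM. Its side ratios were 0.41 and -0.29, and its sides overlapped.

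Of the paralogues, Rps27l (ENSRNOG00000050473, chromosome 8), a near copy of Rps27, had the highest side ratio of the family at 13 months. It stood at 19.0 and 5.96 RPKM in adult rats, and at 14.5 and 5.70 RPKM in old rats, with side ratios of 1.52 and 1.21 (limma 1.37, SE 0.17, adjusted p = 3.00e-06). Both ipsilateral libraries lay well above both contralateral ones. Rpl22l1, the paralogue of Rpl22, stood at 22.9 and 18.7 RPKM and then at 13.3 and 18.5 RPKM, lowest on the old bleeding side. Rpl7l1, which acts in ribosome assembly, stayed between 14.3 and 17.2 RPKM in all 4 libraries. Rpl10l, the testis counterpart of Rpl10, was at 0.93 to 2.15 RPKM, and Rpl3l of muscle and Rpl39l of testis were at 0.5 RPKM or less.

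Among the listed copies only 4 of 18 passed the filter. Rpl34-ps1, named a pseudogene, held 337 and 226 RPKM in adult rats and 200 and 259 RPKM in old rats, above the Rpl34 row itself at 41.4 and 30.9 RPKM and then 24.9 and 29.1 RPKM. Both rows had the same order of libraries except for the contralateral pair. Rpl31l4 stood at 10.1 and 6.03 RPKM and then at 2.68 and 7.66 RPKM, with side ratios of 0.65 and -1.23. Rpl31 itself, at 27.7 and 22.9 RPKM and then 21.1 and 22.3 RPKM, had side ratios of 0.26 and -0.07.

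The genes outside the family whose values over the 4 libraries were most like those of Rpl37 were sought among those averaging 5 RPKM or more, by the Euclidean distance of log2 values centred on each gene's mean. The nearest were Mrpl33, a protein of the mitochondrial ribosome, at a distance of 0.63, and the initiation factor Eif5b at 0.65. Mrpl33 stood at 212 and 160 RPKM in adult rats, and at 57.5 and 209 RPKM in old rats. The next was RGD1564883, described as similar to L12, at 90.4 and 52.9 RPKM and then at 19.4 and 45.6 RPKM. The remaining nearest genes were AABR07026424.1, AABR07054370.1 and Tceal5. Within the family Rpl31l4, Rpl36 and Rpl35 were nearest, at distances of 0.96, 1.02 and 1.23. The distance rests on 4 libraries.

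Gnb2l1, the older name of Rack1 of the 40S head, stood at 34.4 and 20.2 RPKM and then at 41.7 and 19.0 RPKM, and it rose on the bleeding side (limma 0.92, SE 0.17, adjusted p = 0.000474). It was highest on the old bleeding side.

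Among the other lists, TOP messages such as those of elongation factors had medians above that of all genes at both ages. The median side ratio of 19 such genes was 0.50 at 13 months and 0.30 at 21 months, and 9 and 6 of them were higher by 0.5. Of all genes, 15.2% and 16.3% were higher by that size. In the limma fit 5 of the 19 rose and 0 fell, beside 13.3% and 0.814% of all genes. The 5 were Vim of intermediate filaments, which reactive glia and blood vessels also express, Pabpc1 of poly(A) tails, Tpt1, Eef1g and Eif3h. Pabpc1 stood at 283 and 119 RPKM in adult rats, and at 204 and 103 RPKM in old rats. Eef1b2, a subunit of the elongation factor complex, went like Rpl35, at 307 and 207 RPKM in adult rats, and at 130 and 216 RPKM in old rats. Its side ratio turned from 0.57 to -0.73, and the adjusted p of limma was 0.877.

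Genes that make or control ribosomes had lower medians than the family at both ages, in each of the 4 lists that follow. The 41 ribosome biogenesis factors had medians of 0.09 at 13 months and -0.08 at 21 months, the latter below the 0.09 of all genes, and limma called 0 of them (1 rose at an unadjusted p of 0.05). Npm1 is in this list and in that of TOP messages. Nucleolin (Ncl), which acts on ribosomal RNA, stood at 214 and 171 RPKM in adult rats, and at 90.7 and 200.0 RPKM in old rats, lowest on the old bleeding side. The 13 genes of RNA polymerase I transcription had medians of 0.23 and 0.00, and 1 of them rose, Myc, a driver of ribosome synthesis, at 4.55 and 1.20 RPKM and then 3.46 and 1.21 RPKM. The 11 chaperones of ribosomal proteins had medians of 0.01 and 0.08, with 0 limma calls, adjusted or not. The 24 genes of mTOR signalling and TOP control had medians of -0.05 and 0.07, the latter -0.04 under median-ratio scaling. Eif4ebp1, a translation repressor that mTOR inactivates, was the 1 gene of that list that rose, from 6.15 RPKM in both contralateral libraries to 15.8 and 16.9 RPKM ipsilaterally.

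The 12 genes of ribosome quality control and nucleolar stress had medians of 0.03 and 0.11, and 2 rose. One of these, the cell cycle inhibitor Cdkn1a, stood at 3.86 and 2.02 RPKM and then at 6.33 and 3.47 RPKM. Respiratory chain subunits, which are also encoded by short abundant messages, went the other way with age. The median of 25 was -0.14 at 13 months and 0.24 at 21 months, and limma called 0 of them (1 rose at an unadjusted p of 0.05). Cox8a stood at 170 and 234 RPKM in adult rats, and at 526 and 192 RPKM in old rats, while Cox7c, picked after its values were seen, stood at 124 and 114 RPKM and then at 76.2 and 117 RPKM. These counts and medians describe the lists beside all genes and are no test of them.

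**Figure D5:**
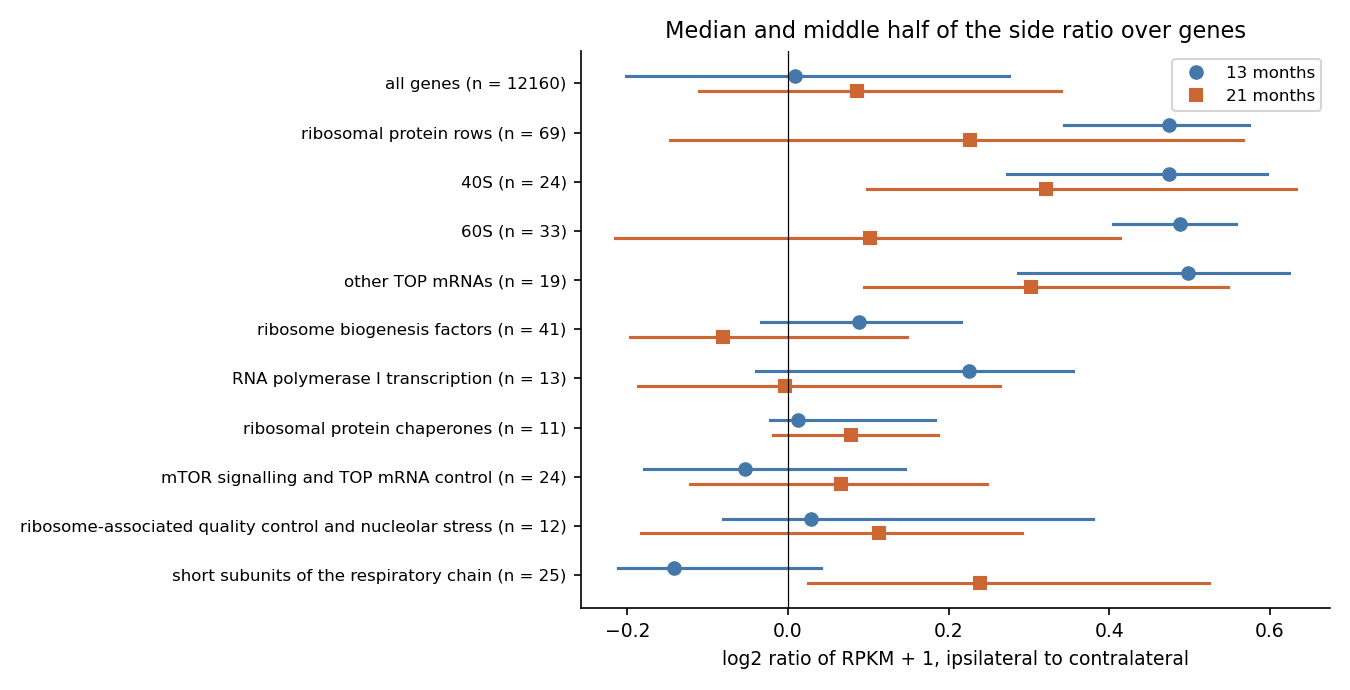
Median (points) and 25th to 75th percentile (lines) over genes of the log2 side ratio of RPKM plus 1 (x axis) at 13 and 21 months, for all genes, the ribosomal protein rows, their subunits and related lists, with the number of genes in brackets. At 13 months the medians of the ribosomal proteins and the other TOP messages lie right of those of the other lists drawn; at 21 months the 60S line runs from below to above 0.

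Markers of several other cell types differed between the sides. The 11 of 12 microglia and macrophage markers with a row summed to 542 and 183 RPKM at 13 months and to 560 and 169 RPKM at 21 months, and 10 of them rose in the limma fit. The 8 markers of monocytes and phagocytes summed to 1581 and 59.5 RPKM and then to 989 and 31.2 RPKM, with Ccr2 at 0 in a library, and the 7 that passed the filter rose. The 5 markers of proliferating cells summed to 54.3 and 7.90 RPKM and then to 35.3 and 6.41 RPKM, and all 5 rose. Of 5 choroid plexus and ependyma markers, 4 had a row; they summed to 667 and 1216 RPKM and then to 1061 and 1791 RPKM, and 3 fell. The 9 neuronal markers summed to 1250 and 1730 RPKM and then to 1387 and 1691 RPKM, and 1 fell. Astrocyte markers, 7 in number, summed to 1786 and 1141 RPKM and then to 1967 and 1016 RPKM, and 1 rose. Their median log2 side ratios were only -0.04 at 13 months, with 4 of the 7 below 0, and 0.13 at 21 months, with 2 below 0. The 6 oligodendrocyte markers stood in opposite order at the 2 ages, at 1869 and 2257 RPKM and then at 2555 and 2145 RPKM, with 0 limma calls, adjusted or not. Endothelial markers, 4 with a row, summed to 22.3 to 26.8 RPKM, with 0 limma calls (1 rose at an unadjusted p of 0.05). The part of these cell types in the ribosomal protein values was not tested.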

How the data were processed

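The 4 libraries were polyadenylated, directional RNA-seq libraries of pooled rat brain RNA, per the labels' protocols. The authors deposited RPKM values, rounded to 2 decimals, for 17853 genes in 4 columns. Per the submitters' processing notes, the tools were cutadapt, TopHat2 and edgeR; neither version nor use is stated. The same notes give the human build GRCh38, yet the gene identifiers are rat Ensembl ones, so the build is unsettled. The sources used here do not give the counting step, the treatment of reads that match several copies or the depth.

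Values were analysed as log2(RPKM + 1) over the 12160 genes averaging 1 RPKM or more, as ratios of single libraries with no test. A side fit with additive age used limma 3.58.1 in R 4.3.3 (two-sided, eBayes, Benjamini-Hochberg over all genes, threshold 0.05) and was tested on simulated data. Its p-values rest on the spread between these pooled libraries, with the ages standing in for repeats. The eBayes step draws each gene's variance toward a value shared over all genes, and 1 residual degree of freedom adds little to it. Rps28, whose side ratios differed by -0.008 between the ages, had an SE of 0.17. In Rpl37 they differed by -3.16, and the SE was 0.39. The SEs and p-values thus do not measure a single gene's own spread. Members named are the 6 highest and 6 lowest in each of the 5 comparisons, the 6 most abundant of each subunit, those called by limma and a set of well-known ones; of other lists, the 2 highest and 2 lowest. Other names (Rpl24, Rps23, Rpl34, Rpl31, Tpt1, Eef1g, Eif3h and Cox7c) were picked after their values were seen. The values of some members and list genes are not reported here. The members and lists were chosen with earlier results of these data known. Sequences and GC content come from RefSeq windows of GRCr8. Alternatives were a pseudocount of 0.1, no filter, a mean of 5 RPKM, median-ratio scaling, rescaling without mitochondrially encoded genes, a log2 ratio of 1, standard symbols only, limma without age or with an intensity trend, and, added after seeing the data, sums per protein.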

Additional observations from a re-analysis of the deposited data

Results flagged for a closer look

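Members whose side ratio was past 0.5 in size in opposite directions at the 2 ages were picked out; with 1 library per group the difference was not tested. Rpl37 had a log2 side ratio of 0.81 at 13 months and of -2.35 at 21 months. Rpl36 had 0.86 and -1.04, Rpl31l4 had 0.65 and -1.23, and Rpl39 had 0.64 and -0.53.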

How the results depend on the processing

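The limma fit pairs the sides by age through its age term; each group holds 1 library, so no further replicate block exists and no library was left out. No value changed direction past its size threshold under the alternatives run. With a pseudocount of 0.1, the members higher by age numbered 2 ipsilaterally and 2 contralaterally, beside 9.56% and 1.97% of all genes. Without a filter the 21 month median of the members was 0.12 and limma called 0 that rose. With a mean of at least 5 RPKM the contralateral age counts were 0 higher and 0 lower, beside 0.711% and 0.574% of all genes. The RNA polymerase I median at 21 months was then -0.13. Median-ratio scaling gave 21 month medians of 0.11 for the members, 0.19 for TOP messages and -0.19 for biogenesis factors. Those of mTOR genes, quality control and respiratory subunits were -0.039, 0.00015 and 0.12. With that scaling 0 members were higher by age ipsilaterally, beside 4.47% of all genes. Rescaling without mitochondrially encoded genes gave 15 members higher at 13 months, a TOP median of 0.40 at 13 months, 8 members that rose in limma (11.6%, against 9.65% of all genes), and 21 month medians of 0.12 for the members, 0.19 for TOP messages, -0.19 for biogenesis factors, -0.037 for mTOR genes, 0.0017 for quality control and 0.13 for respiratory subunits. Shares of the sum without those genes were 3.09%, 2.36%, 2.79% and 2.37% (13 months, then 21 months, ipsilateral first). Counting a log2 ratio of 1 left 2 members higher at 13 months (2.9%, against 7.19% of all genes), 4 higher (5.8%, against 5.61%) and 3 lower (4.35%, against 0.288%) at 21 months, 0 higher and 4 lower (5.8%, against 0.658%) by age ipsilaterally, 0 and 0 contralaterally, and 0 higher and 5 lower (7.25%, against 0.757%) in the difference. Standard symbols only gave 0 lower by age contralaterally. Without the age term limma called 11 members that rose (15.9%, against 9.79% of all genes). The other fits called 13 to 16, which were 18.8% to 24.6% of the members, against 10.5% to 13.5% of all genes. Sums per protein, added after seeing the data, gave 0 higher and 27 lower by age ipsilaterally, 0 lower contralaterally, and 3 higher in the difference, with a median of -0.37. The cause of these shifts was not tested. Depth is unknown, so rows near 1 RPKM are the least certain.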
